A study of Mus musculus with 6 samples.

Results

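The 10 genes Vcan, Bcan, Ncan, Acan, Hapln1, Has2, Tnc, Tnr, Ptprz1 and Cspg5 encode the lecticans, the tenascins and the molecules that tie them into the hyaluronan matrix around neurons and glia. They were followed in cultured mouse cortical astrocytes from control pups and from pups with a knockout of the receptor gene Neo1. The 10 genes were taken by symbol from a table of read counts for 54532 genes, and each symbol matched 1 row. The cultures were primary cortical astrocytes from mouse pups. In the 3 knockout libraries the pups were GFAP-Cre::NEOf/f, that is, both copies of Neo1 were floxed and Cre recombinase was driven by the promoter of Gfap, so that recombination is limited to cells in which that promoter has been active. The 3 control libraries came from pups labelled only as control, littermates by the study's design statement, whose library names (Neoff) point to the floxed allele without Cre. The sources used here do not give the age of the pups, the deleted exon or whether animals were pooled. The libraries are called biological replicates but no label ties a library to a pup or to a particular litter. A p-value here therefore sets the difference between genotypes against the spread among these libraries only. Part of that spread may be technical.

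Library totals ran from 60819277 to 106081115 counts. Neo1, which encodes the netrin and RGM receptor neogenin, averaged 192 ± 5.20 CPM (counts scaled to library size) in control and 104 ± 2.69 CPM in knockout libraries (SD, n = 3), a fold of 0.540, and the groups did not overlap. Neo1 RNA was thus reduced but not lost in the knockout libraries, and the source of the remaining RNA was not tested. Knockout replicate 2 lay apart from the other two knockout libraries on the first and second principal components, which held 49.3% and 19.6% of the variance, and the member values that moved most with it are also given without it. All 12 astrocyte markers looked at were above the filter on low counts. Their summed level was 3164 to 3232 CPM in control and 2835 to 2972 CPM in knockout libraries, and the lowest marker, the connexin gene Gjb6, was at 0.924 and 1.10 CPM.

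Lecticans are large chondroitin sulfate proteoglycans that bind the polysaccharide hyaluronan at one end and tenascins at the other. Link proteins such as that of Hapln1 clamp a lectican to hyaluronan, and hyaluronan itself is made at the cell surface by synthases such as Has2. In the brain these molecules form the loose matrix between cells and the denser perineuronal nets around some neurons, and astrocytes are a source of neurocan, brevican and tenascin-C, some of which increase in glial scars, where chondroitin sulfate proteoglycans restrain axon growth.

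Of the 10 genes, 4 were higher and 5 lower in knockout than in control cultures, and 1 was not called. The background among all 18530 genes tested was 19.6% called higher and 18.7% called lower, or 38.3% in either direction (edgeR quasi-likelihood test, Benjamini-Hochberg adjustment over all genes, threshold 0.05). Vcan, Has2, Tnc and Tnr rose, and Ncan, Bcan, Cspg5, Acan and Hapln1 fell. For 9 of the 10 the knockout libraries lay wholly above or below the controls, against 49.3% of all genes tested. The median log2 fold change of the 10 was −0.22, beside −0.0018 for all genes. Without knockout replicate 2 the counts were 3 higher and 5 lower. Scaled by total counts alone, the 10 were again 4 higher and 5 lower, while all genes split into 2921 higher and 4499 lower in place of 3627 and 3466.

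**Figure D1:**
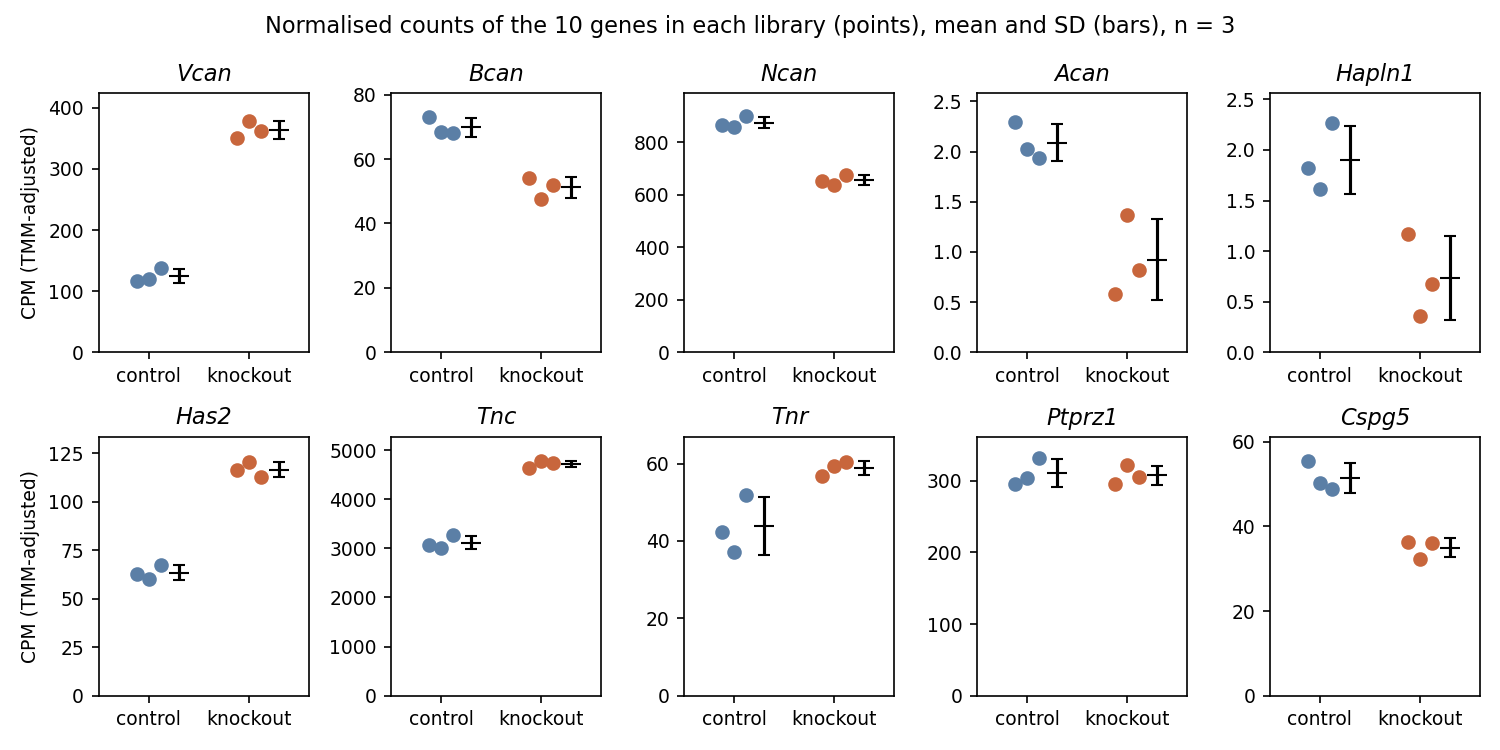
Normalised counts (CPM with TMM-adjusted library sizes, vertical axes from 0) of the 10 genes in 3 control and 3 knockout libraries. Points are libraries in order of replicate number and bars are the mean and SD. Vcan, Has2, Tnc and Tnr lie higher in every knockout library, Bcan, Ncan, Acan, Hapln1 and Cspg5 lower, and the groups of Ptprz1 overlap.

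The stretches upstream of 3 of these genes are shown because they belong to the lectican that rose, the most abundant lectican, which fell, and the most abundant gene of the set. They are taken from RefSeq (GRCm38.p6), read 5′ to 3′ on the strand of the gene, and run up to the annotated start with exon bases left out. Vcan is at chr13:89742513-89742762, Ncan at chr8:70120874-70121094 and Tnc at chr4:64047016-64047265, all on the minus strand. Capitals mark matches to any of 5 motifs searched on both strands. The GC box bound by Sp1 was searched as GGGCGG. The TATA box of core promoters was searched as TATAAA. The core of the hypoxia response element was searched as ACGTG. The site of the AP-1 factors was searched as TGANTCA, and the NF-kappaB site was searched by its consensus. No 2 matches overlap in these stretches.
Vcan: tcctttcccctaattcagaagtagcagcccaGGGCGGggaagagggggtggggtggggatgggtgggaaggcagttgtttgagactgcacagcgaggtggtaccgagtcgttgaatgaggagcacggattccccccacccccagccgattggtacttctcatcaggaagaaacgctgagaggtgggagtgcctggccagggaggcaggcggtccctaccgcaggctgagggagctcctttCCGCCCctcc
Ncan: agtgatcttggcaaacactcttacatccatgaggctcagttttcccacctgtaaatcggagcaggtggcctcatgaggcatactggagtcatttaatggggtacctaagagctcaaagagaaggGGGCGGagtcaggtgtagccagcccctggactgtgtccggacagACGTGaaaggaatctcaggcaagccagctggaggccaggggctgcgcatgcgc
Tnc: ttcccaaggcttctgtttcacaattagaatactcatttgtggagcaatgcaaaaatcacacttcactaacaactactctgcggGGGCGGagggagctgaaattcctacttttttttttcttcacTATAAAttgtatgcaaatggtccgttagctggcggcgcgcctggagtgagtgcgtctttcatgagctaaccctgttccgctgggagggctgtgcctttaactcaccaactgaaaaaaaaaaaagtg

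The Vcan stretch held 2 GC boxes, the Ncan stretch 1 GC box and 1 ACGTG, and the Tnc stretch 1 GC box and 1 TATAAA. The TATAAA of Tnc began 126 bases before the end of the stretch. A second RefSeq start of Tnc, with 171 exon-free bases, held the same 2 matches. Over the 250 bases before the start of all 32851 RefSeq promoters, 32.7% held a GC box, 16.6% ACGTG, 12.4% a TATA box, 6.7% an AP-1 site and 3.9% an NF-kappaB site. Of the 10 genes, 8 had an entry, and Hapln1 was left with no exon-free stretch. GC boxes stood before genes that rose (Vcan, Tnc), genes that fell (Ncan, Bcan, Acan) and Ptprz1, while the stretch of Tnr, which rose, held no GC box. A match is a description of the letters and does not show that a factor binds there.

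Among the lecticans, versican RNA rose while the other three fell. Versican (Vcan, ENSMUSG00000021614, GRCm38 chromosome 13, 89655312 to 89742509, minus strand) is the most widely expressed lectican, found in brain and in connective tissue. Control replicates 1, 2 and 3 held 116, 120.2 and 137 CPM, and knockout replicates 1, 2 and 3 held 350.1, 379 and 362 CPM. Every knockout library was far above every control library. This is a log2 fold change of 1.54 (SE 0.06), a fold of 2.92, with an adjusted p of 9.25e-13 (edgeR), and it ranked 452 from the highest of the 18530 genes tested. Leaving out each library in turn gave log2 fold changes from 1.49 to 1.62. The count pools all splice forms of Vcan, so the forms with and without the long chondroitin sulfate regions cannot be told apart.

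Neurocan (Ncan, chromosome 8, 70093085 to 70120873) is made almost only in the nervous system and was the most abundant lectican here. Its 3 controls were at 865, 859 and 899 CPM and its 3 knockouts at 653, 637 and 674 CPM. The groups were well separated and each varied little. Ncan fell by 0.42 on the log2 scale (SE 0.04), with an adjusted p of 2.01e-07 (edgeR). Brevican (Bcan, chromosome 3, 87987531 to 88000230), the lectican of mature brain and of perineuronal nets, was at 73.1, 68.3 and 68.0 CPM in the controls and at 54.2, 47.7 and 51.8 CPM in the knockouts. It fell by 0.45 on the log2 scale (SE 0.06, adjusted p = 1.1e-05, edgeR), to about the same extent as Ncan.

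Aggrecan (Acan, chromosome 7, 79053483 to 79115099), the main lectican of cartilage and of the nets around fast-spiking neurons, was near the limit of detection. It had 143, 140 and 210 counts in control and 55, 100 and 60 counts in knockout libraries, or 2.30, 2.03 and 1.94 against 0.576, 1.37 and 0.821 CPM. The groups did not overlap, and knockout replicate 2 lay nearest to the controls. Acan fell by 1.19 on the log2 scale (SE 0.30) with an adjusted p of 0.0048 (edgeR). The fall was 1.59 without that library and 0.93 without knockout replicate 1.

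These changes altered the makeup of the lectican RNA more than its amount. Per kilobase of exon, the 4 lecticans summed to 148 ± 3.47 in control and 129 ± 2.48 CPM per kilobase in knockout libraries. Versican made up 5.49%, 5.74% and 6.27% of that sum in control and 18.9%, 20.7% and 19.0% in knockout libraries. Neurocan made up 82.3% ± 0.264 and 70.6% ± 0.651, and brevican 11.6% ± 0.612 and 9.78% ± 0.567. The ratio of Ncan to Vcan was between 13.2 and 14.9 in control libraries and between 3.38 and 3.75 in knockout libraries, so neurocan was the larger in every library. These shares follow from the values already tested and carry no test of their own. With the longest coding transcript as the length, versican was 6.50% and 21.4%.

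**Figure D2:**
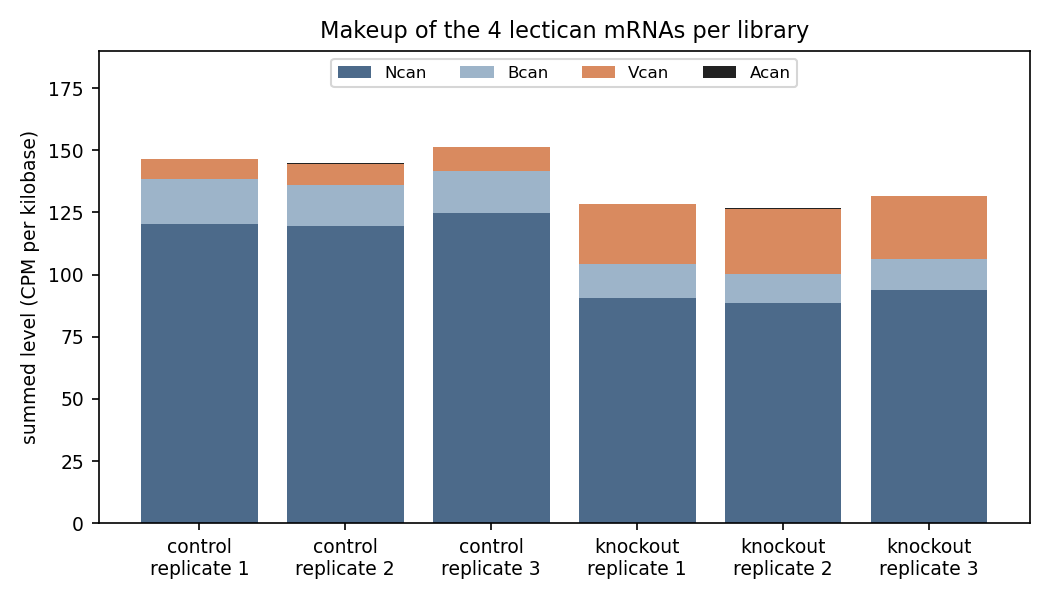
Levels of the 4 lectican RNAs in each of the 6 libraries, stacked (CPM per kilobase of exon, axis from 0). The versican part grew from 5.83% to 19.5% of the mean sum between control and knockout, while the neurocan part stayed the largest in each library, and the aggrecan part is too thin to see.

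Each lectican gene has a link protein gene as its neighbour, with no protein-coding gene in between. The gaps between Vcan and Hapln1, Bcan and Hapln2, and Ncan and Hapln4 are 43.7, 21.5 and 2.2 kb, and Acan and Hapln3 end 2 bases apart. Hapln1 (chromosome 13, 89539796 to 89611652) encodes the cartilage link protein, also a part of perineuronal nets. It was rare, with 113, 111 and 246 counts in control and 112, 26 and 49 in knockout libraries, or 1.82, 1.61 and 2.27 against 1.17, 0.355 and 0.670 CPM. It was lower in all 3 knockout libraries, which differed among themselves by more than the controls did. Hapln1 fell by 1.36 on the log2 scale (SE 0.36) with an adjusted p of 0.00562 (edgeR), by 1.04 without knockout replicate 2 and by 1.89 without knockout replicate 1.

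At the Vcan locus the neighbours differed in direction: Vcan rose and Hapln1 fell. Hapln3 averaged 2.37 ± 0.250 CPM in the controls and 1.52 ± 0.279 CPM in the knockouts (log2 fold change −0.64, adjusted p = 0.037, edgeR), the direction of Acan. Its call was lost without any one of control replicates 1, 2 and 3 and of knockout replicates 1 and 2 (adjusted p from 0.0506 to 0.138, edgeR). Hapln4, whose protein partners brevican at inhibitory synapses, was at 9.14 ± 0.891 and 9.08 ± 0.524 CPM and was not called. Hapln2, a link protein gene of myelinated axons, had 0 to 16 counts per library and was below the filter. Hapln3 and Acan are convergent, and their reads at the shared end may be assigned to either without strand.

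The hyaluronan synthase gene Has2 rose, while other genes of hyaluronan synthesis, binding and breakdown moved both ways. Has2 (chromosome 15, 56665627 to 56694539, minus strand) encodes the synthase that makes long hyaluronan chains. The controls held 62.8, 60.1 and 67.4 CPM and the knockouts 116, 120.4 and 113 CPM. The 2 groups were narrow and far apart. Has2 was 1.84-fold higher, a log2 fold change of 0.88 (SE 0.05) with an adjusted p of 7.01e-10 (edgeR). The antisense gene Has2os shares 182 bases of exon with Has2 and had 307 counts over all libraries, against 43519 for Has2, so its reads could add little to the Has2 count.

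The other two synthase genes were rare: Has1 was at 1.07 and 1.48 CPM and Has3 at 0.589 and 1.13 CPM in control and knockout libraries, and neither was called. Of 13 tested genes for hyaluronan synthesis, turnover and binding, 4 rose and 2 fell, with a median log2 fold change of 0.38, against 38.3% of all genes called in either direction, and 3 rose and 2 fell under total-count scaling. Cd44, the main hyaluronan receptor, rose from 1388 ± 20.8 to 1915 ± 75.1 CPM. Cemip, needed for the breakdown of hyaluronan, rose from 709 ± 37.9 to 969 ± 10.5 CPM, and Tmem2, its relative, from 65.5 ± 3.97 to 101 ± 2.05 CPM. The hyaluronidase genes differed: Hyal2 fell from 51.4 ± 4.37 to 40.8 ± 2.57 CPM, Hyal1 rose from 7.01 ± 0.944 to 9.10 ± 1.01 CPM, and Hyal3 was not called. Ugp2, which helps make a sugar precursor, fell from 146 ± 6.96 to 123 ± 13.4 CPM. Hyaluronan itself was not measured.

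Tenascin-C was by far the most abundant of the 10 genes, and it rose. Tenascins are multi-armed glycoproteins that bind lecticans and cell surface receptors, and Tnc is typical of growing and injured tissue. Tnc (ENSMUSG00000028364, chromosome 4, 63959785 to 64047015, minus strand) was at 3070.4, 3008 and 3269 CPM in the controls and 4640.1, 4771 and 4739 CPM in the knockouts, with no overlap. It held 0.308% to 0.334% of all counts in control and 0.455% to 0.464% in knockout libraries, and it ranked 11 or 12 by count in the controls and 6 in each knockout library. Tnc was 1.51-fold higher, a log2 fold change of 0.60 (SE 0.04) with an adjusted p of 1.22e-09 (edgeR). An antisense gene, 8030451A03Rik, shares 176 bases with Tnc and had 1308 counts over all libraries against 1891069.

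Tenascin-R (Tnr, chromosome 1, 159523769 to 159931729) cross-links lecticans in perineuronal nets and is made mainly by oligodendrocytes and some neurons. The controls held 42.3, 37.3 and 51.9 CPM and the knockouts 56.8, 59.4 and 60.4 CPM. The knockout libraries were close together and above all controls, with control replicate 3 the nearest. Tnr rose by 0.42 on the log2 scale (SE 0.09) with an adjusted p of 0.00274 (edgeR). Without knockout replicate 2 the difference was 0.41 and no longer called (adjusted p = 0.0676, edgeR). Of the summed level of Tnc and Tnr per length, Tnc made up 99.05% to 99.27% in the 6 libraries. Of the other tenascin genes, Tnn rose by 0.53 on the log2 scale, from 26.1 ± 2.08 to 37.7 ± 2.33 CPM, and Tnxb by 0.84, from 3.29 ± 0.489 to 5.85 ± 1.32 CPM. With all 6 libraries in the fit, the 4 tenascin genes measured were called higher, beside 19.6% of all genes tested. This did not hold for Tnr without knockout replicate 2.

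**Figure D3:**
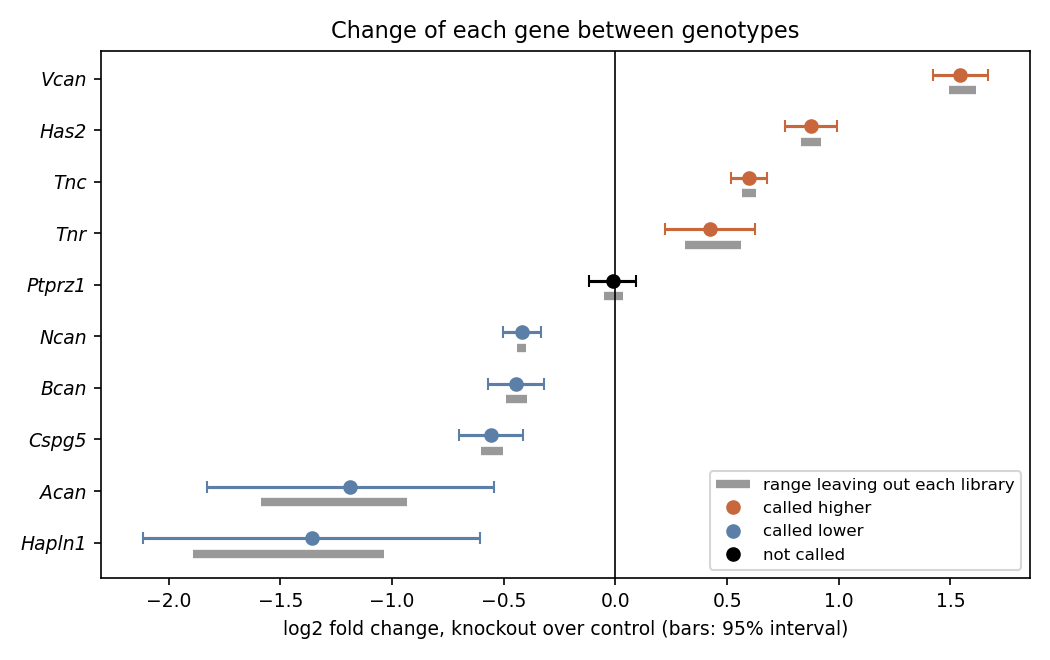
Log2 fold change of knockout over control for each gene (points) with its 95% interval (bars), and the range when each of the 6 libraries is left out in turn (grey). Vcan is highest at 1.54 and Hapln1 lowest at −1.36, and the interval of Ptprz1 spans 0.

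The transmembrane proteoglycans differed from one another. Ptprz1 (chromosome 6, 22875502 to 23052916) encodes a receptor tyrosine phosphatase whose secreted form is the proteoglycan phosphacan, a ligand of tenascins. The controls held 295, 304 and 332 CPM and the knockouts 296, 322 and 306 CPM, and all 3 knockouts lay within the range of the controls. The difference was −0.01 on the log2 scale, with a 95% interval of −0.12 to 0.09 and an adjusted p of 0.876 (edgeR). Cspg5 (chromosome 9, 110243783 to 110262576), neuroglycan C, a brain proteoglycan with an EGF-like domain, was at 55.4, 50.2 and 48.8 CPM in the controls and 36.4, 32.4 and 36.0 CPM in the knockouts. It fell by 0.56 on the log2 scale (SE 0.07, adjusted p = 3.61e-06, edgeR), and no knockout library reached a control. A stretch of 118 to 136 bases of its transcript matched 11 other genes at 95.2% to 97.5% identity, a small part of its length. No other of the 10 genes had such a match, other than to the genes whose exons overlap those of Tnc, Tnr and Has2.

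Genes for receptors and ligands of these molecules moved both ways. Of 15 tested, 6 rose and 6 fell, and the median was 0.10, while under total-count scaling 4 rose and 6 fell. Among all genes tested, 38.3% were called in either direction. Ptn, which encodes pleiotrophin, a ligand of the Ptprz1 receptor, fell from 178 ± 1.34 to 134 ± 3.88 CPM (log2 fold change −0.41). Itgb3 and Itgav, the subunits of an integrin that binds tenascin-C, rose, Itgb3 from 23.9 ± 2.68 to 48.6 ± 1.32 CPM and Itgav from 664 ± 26.2 to 789 ± 15.1 CPM. Itga8 and Itga9, which encode other tenascin-C integrin subunits, fell by 0.36 and 0.27 on the log2 scale. Mdk, which encodes midkine, the relative of pleiotrophin and also a Ptprz1 ligand, rose from 37.7 ± 1.85 to 45.2 ± 3.98 CPM. The ligand genes Ptn and Mdk differed in direction, and the receptor gene Ptprz1 was not called.

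The genes for enzymes that build the chondroitin sulfate chains moved both ways. Of 12 genes for chain synthesis, 5 rose and 2 fell (median 0.11), beside 38.3% of all genes called in either direction. Under total-count scaling 3 rose and 4 fell. Fam20b, the xylose kinase of the linkage region, rose from 122 ± 3.51 to 158 ± 9.52 CPM. B3gat3, which adds the last sugar of that region, fell from 44.9 ± 1.06 to 34.0 ± 4.47 CPM, and the polymerising factor gene Chpf from 229 ± 15.5 to 188 ± 16.8 CPM. Of 11 genes for sulfation and epimerisation, 4 rose and 4 fell (median −0.11), beside the same 38.3%, and 4 and 6 under total-count scaling. Chst11, a 4-O-sulfotransferase gene, rose from 303 ± 16.4 to 388 ± 4.46 CPM and Ust, the uronyl 2-O-sulfotransferase gene, from 13.0 ± 0.331 to 18.9 ± 0.724 CPM. Chst3, a 6-O-sulfotransferase gene, fell from 38.5 ± 3.03 to 24.6 ± 1.26 CPM. Chst7, also a 6-O-sulfotransferase gene, fell from 29.2 ± 0.838 to 20.1 ± 3.70 CPM, and Chst12, another 4-O-sulfotransferase gene, was at 19.9 ± 1.44 and 17.0 ± 2.28 CPM and was not called. The chains themselves were not measured.

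Among 7 proteases that cleave lecticans and the inhibitor Timp3, 3 genes rose, Timp3 among them, and 4 fell, with a median log2 fold change of −0.75. Under total-count scaling 3 rose and 5 fell, and of all genes tested 38.3% were called in either direction. Adamts4, an aggrecanase that cuts brevican and versican, was at 26.1, 26.6 and 27.7 CPM in the controls and 85.0, 75.3 and 88.8 CPM in the knockouts (log2 fold change 1.63, SE 0.07, with an adjusted p of 1.76e-12, edgeR). Adamts1, which cuts versican and was the most abundant of the 7 proteases, fell from 427 ± 17.5 to 222.5 ± 6.14 CPM (−0.94), and Adamts5 from 110.4 ± 7.55 to 64.6 ± 3.80 CPM (−0.77). Adamts9, which also cuts versican, rose from 90.7 ± 5.80 to 126 ± 1.02 CPM (0.47). Adamts8 fell from 4.66 ± 0.665 to 2.82 ± 0.315 CPM and Adamts20 from 1.37 ± 0.292 to 0.643 ± 0.322 CPM. Adamts15 was at 0.753 ± 0.116 and 0.337 ± 0.159 CPM and was not called. The genes for proteases that cut versican moved both ways. Adamts4 and Adamts9 were the only proteases of the list called higher, and Adamts1, Adamts5, Adamts8 and Adamts20 were called lower.

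**Figure D4:**
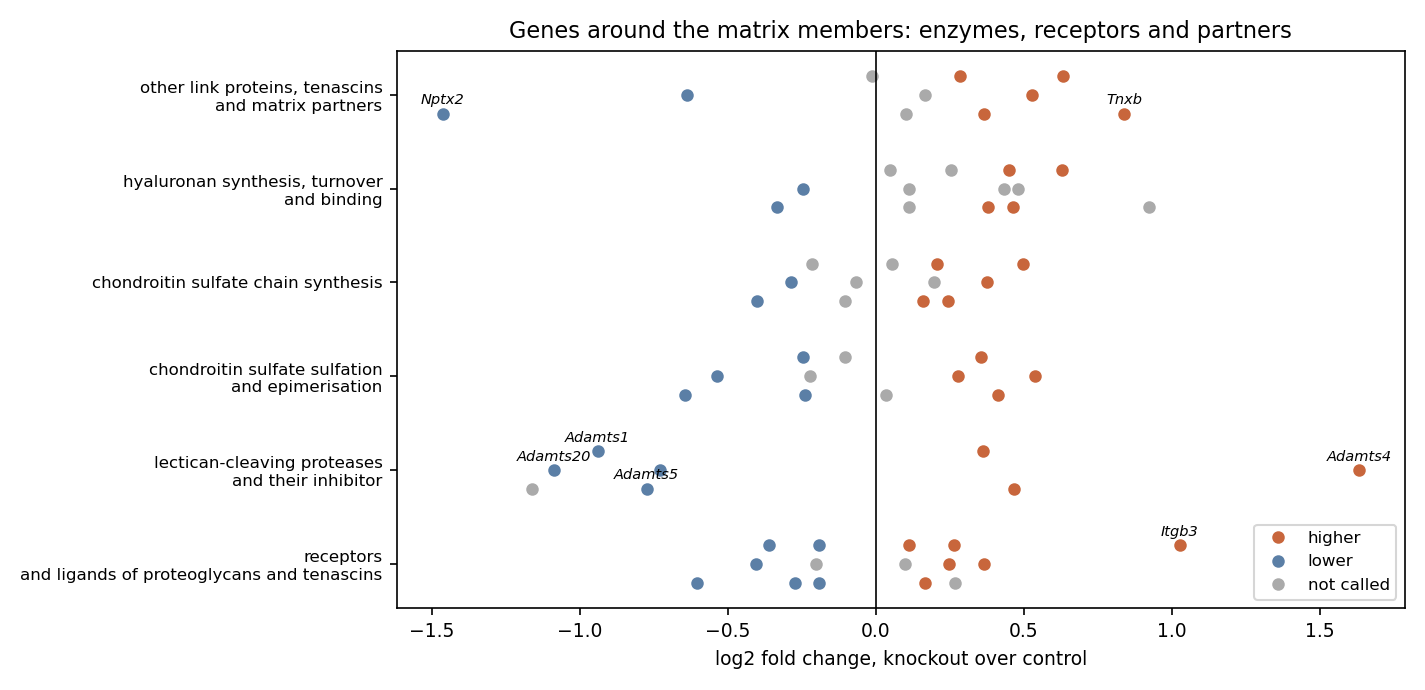
Log2 fold change (knockout over control) of each tested gene in 6 lists of partners, enzymes and receptors. Each point is a gene, coloured by whether it was called higher, called lower or not called, and called genes beyond 0.75 in either direction are named. Adamts4 at 1.63 and Nptx2 at −1.46 lie farthest out.

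The remaining list held link proteins, tenascins and other matrix partners, of which 5 rose and 2 fell of 10 tested (median 0.22). Fbln2, a ligand of lecticans, rose from 269.6 ± 2.77 to 417 ± 8.34 CPM and Fn1, fibronectin, from 4749.9 ± 338 to 6121 ± 84.3 CPM. Nptx2, a pentraxin that gathers at perineuronal nets, fell from 34.9 ± 1.92 to 12.6 ± 1.26 CPM (log2 fold change −1.46). Over all 6 lists, 27 rose and 20 fell of 69 tested genes, with a median of 0.11, and 22 rose and 25 fell under total-count scaling. The shares over all genes tested, to set beside these counts and that of the matrix partners, were 19.6% called higher and 18.7% called lower.

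Per length, the 10 genes spanned over 3 orders of magnitude, and the order of the middle ranks differed between genotypes. In control libraries the order was Tnc (401 CPM per kilobase), Ncan (122), Ptprz1 (21.8), Bcan (17.2), Has2 (14.98), Vcan (8.62), Cspg5 (5.11), Tnr (3.41), Hapln1 (0.322) and Acan (0.280). In knockout libraries it was Tnc (607), Ncan (90.9), Has2 (27.5), Vcan (25.1), Ptprz1 (21.6), Bcan (12.6), Tnr (4.58), Cspg5 (3.47), Hapln1 (0.124) and Acan (0.123). Only Hapln1 and Acan overlapped between neighbours in either order. Has2 and Vcan stood above Bcan in the knockout and below it in control libraries, and Tnr and Cspg5 changed places. Tnc made up 67.5% ± 0.268 of the summed level of the 10 genes in control and 76.5% ± 0.229 in knockout libraries. With the longest coding transcript as the length, Ptprz1 stood above Vcan and Has2 in the knockout (38.2 against 29.3 and 27.5), and the libraries of Vcan and Has2 overlapped.

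**Figure D5:**
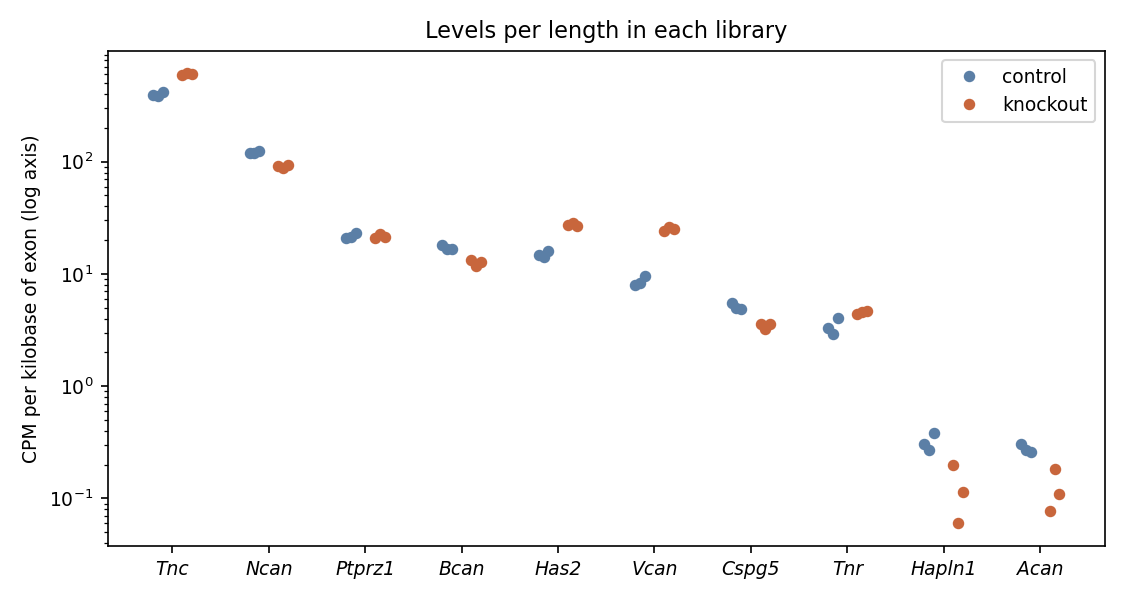
Level of each gene in each library per kilobase of exon (log axis), ordered by the control mean. Tnc lies at the top at 401 in control and 607 in knockout, and Has2 and Vcan lie below Bcan in the control libraries and above it in the knockout libraries.

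Markers of other cells that make these molecules moved in the same libraries, and their part in the results was not tested. In bulk RNA, fewer cells of a type and less RNA per cell cannot be told apart. For each count of markers here and in the next paragraph, the share over all genes tested was 19.6% called higher and 18.7% called lower. With total-count scaling, 5 fibroblast and meningeal markers rose and 2 fell, and 2 endothelium markers rose and 0 fell. By that scaling 1 pericyte and smooth muscle marker rose and 2 fell, and 0 cell division genes rose and 8 fell. The counts of the other marker lists did not change with it. Fibroblasts and meningeal cells also make versican, Has2 and tenascin-C. Of 9 tested markers of these cells, 6 rose and 1 fell, and their summed level was 3764 to 3977 CPM in control and 5277 to 5908 CPM in knockout libraries. Dcn rose from 14.7 ± 0.934 to 43.4 ± 0.468 CPM and Col3a1 from 253 ± 2.71 to 496 ± 7.79 CPM, while Thy1 fell from 377 ± 11.5 to 196 ± 1.05 CPM. Slc6a13, a marker of meningeal cells, was below the filter.

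Oligodendrocyte precursors also make Ptprz1, Bcan, Cspg5, Vcan and Tnr. Of 10 tested markers of that lineage, 2 rose and 4 fell, and the summed level of the list was 336 to 345 CPM in control and 293 to 339 CPM in knockout libraries. Olig1 fell from 84.4 ± 3.20 to 46.4 ± 5.62 CPM, Olig2 from 20.6 ± 1.32 to 15.2 ± 2.80 CPM and Cnp from 69.0 ± 4.32 to 51.8 ± 5.21 CPM. Pdgfra rose from 7.64 ± 0.598 to 14.1 ± 0.585 CPM and Cspg4 from 152 ± 4.26 to 185 ± 9.36 CPM. Sox10, which defines the lineage, was also called lower but was near 0, at 0.458 and 0.0592 CPM. Gpr17 and Mog were below the filter. Among the 12 markers of astrocytes, a source of Ncan and Bcan, 2 rose and 7 fell. Gfap fell from 946 ± 20.8 to 431 ± 3.85 CPM and Aldoc from 103 ± 2.84 to 56.7 ± 0.679 CPM, while Slc1a2 rose from 133 ± 8.41 to 371 ± 16.6 CPM. Of 6 neural progenitor markers 0 rose and 4 fell, and their summed level was 1641 to 1727 CPM in control and 1233 to 1246 CPM in knockout libraries. Of 11 neuron markers 1 rose and 2 fell, with a median of −0.01 and a sum of 413 to 427 CPM and 353 to 369 CPM. Most of that sum was Stmn2, which fell from 284 ± 8.35 to 225 ± 9.11 CPM. The nuclear marker Rbfox3 was near 0, at 0.309 and 0.150 CPM. Endothelium markers (3 rose and 0 fell of 6; sum 82.3 to 87.8 and 139 to 141 CPM), microglia markers (1 and 7 of 10; 84.4 to 91.8 and 63.1 to 69.9 CPM) and cell division genes (0 and 7 of 10; 825 to 857 and 706 to 748 CPM) also moved. Of 6 choroid plexus and ependyma markers 1 rose and 5 fell, with a median of −1.54 and a sum of 91.6 to 94.4 CPM in control and 40.9 to 47.0 CPM in knockout libraries. Ttr, the defining choroid plexus marker, averaged 19.4 CPM in the controls and was near 0 in the knockouts, at 0.0126 CPM. Pericytes and smooth muscle cells also make versican. Of 6 of their markers 2 rose and 2 fell, with a median of 0.03. The sum was 3909 to 4092 CPM in control and 2881 to 2924 CPM in knockout libraries, most of it from Acta2. Acta2 fell from 3849.9 ± 106.4 to 2685 ± 29.4 CPM, and Pdgfrb rose from 80.3 ± 3.17 to 115 ± 3.56 CPM.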

How the data were processed

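RNA had been extracted with Trizol and libraries made with poly-T beads, per the labels' protocols. The authors' deposited table holds raw counts per gene, made with HISAT2 2.2.1 and featureCounts 2.0.6 against build GRCm38 (mm10); both tools and the build come from the submitters' processing notes. The sources used here do not give the annotation release, the strand setting or the treatment of multi-mapped reads. Columns were matched to libraries by name and grouped by title.

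Counts of all genes were tested with edgeR 4.0.16 (R 4.3.3; TMM, robust quasi-likelihood, genotype alone, two-sided). filterByExpr (minimum count 10, total 15) kept 18530 genes, and p-values were adjusted over all of them. SE came from the test statistic. The script was tested on simulated data. Levels between genes are CPM per kilobase of the union of exons (GENCODE M21, GRCm38). Overlapping copies were searched with blastn 2.17.0 (95% identity, 100 bases). Within groups, every pair of libraries differed beyond counting error (chi-square of 5.98 to 21.7 per gene).

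The members and lists were chosen with earlier results of these data known. Genes were named by rule: the 10 members, Neo1, and up to 3 called genes of the smallest p per list. Hapln2 to Hapln4, Has1, Has3, Tnn, Tnxb, Gjb6, Sox10, Olig2, Cnp, Rbfox3, Slc6a13, Gpr17, Mog, Timp3, Adamts8, Adamts9, Adamts15, Adamts20, Hyal1 to Hyal3, Ugp2, Mdk, Itga8, Itga9, Chst7, Chst12 and overlapping genes were named outside it, for their family, position or role, after their values were seen. Alternatives included DESeq2 1.42.0 and limma-voom (limma 3.58.1).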

Additional observations from a re-analysis of the deposited data

How the results depend on the processing

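The counts of 4 higher and 5 lower members were the same under median-of-ratios and total-count scaling, DESeq2, limma-voom, no filter or a filter of 1 CPM, a threshold of 0.01 and without any one of control replicates 1 to 3 and knockout replicates 1 and 3. Leaving out single libraries gave 3 to 4 higher and 5 lower, since Tnr was lost without knockout replicate 2. Tested against a fold of 1.5 with edgeR's glmTreat, 2 members (Vcan and Has2) were higher and 0 lower (2 lower at an unadjusted p under 0.05). By that test 666 of all genes were higher and 348 lower, and 2 and 3 of the partner genes. Under the replicate block the counts were 4 and 5 for the members and 3501 and 3383 for all genes, and the block changed no call of the members, Neo1, Hapln3, Hapln4 or the genes named by rule. No label states that equal replicate numbers pair the samples. Deviations from the group mean correlated little between libraries of the same number (0.015, 0.019 and −0.0082). Control replicates 1 and 2 correlated best with their own number, and control replicate 3 did not. With 3 libraries per group these correlations cannot decide whether the samples were paired. The direction of 2 uncalled genes turned when a library was left out: Ptprz1 ran from −0.052 to 0.035 (0.035 without control replicate 3, 0.015 without knockout replicate 1) and Hapln4 from −0.090 to 0.048 (0.048 without control replicate 3, 0.0093 and 0.011 without knockout replicates 1 and 2). Counts near 100 limit Acan and Hapln1, whose ranges over the alternatives were −1.59 to −0.93 and −1.89 to −1.04.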
